A study of Mus musculus with 8 samples.

Results

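The transcription factor p53 and 7 genes that it is known to activate were examined for binding of RelA, the p65 subunit of NF-kB. The 8 genes were chosen by name: Trp53, which encodes p53, and Btg2, Trp53inp1, Ccng1, Cdkn1a, Mdm2, Bbc3 and Sesn2. All 8 were found among the 21521 protein-coding genes used. Binding was read by ChIP-seq, in which DNA fragments pulled down with an antibody are sequenced. The cells were primary fibroblasts from embryos of the mouse strain C57BL/6, wild-type in genotype, starved of serum overnight and then given the inflammatory cytokine TNF at 10 ng/ml. The design has 2 RelA libraries at each of 0, 0.5 and 3 h of TNF and 2 libraries of input DNA, so that all 8 libraries share genotype, strain and serum starvation. The values analysed were a single list of 9829 peaks given by their positions on the mm10 genome, with no height, score, time or library attached. No value per library, no replicate spread and no depth could therefore be given, the times could not be compared, and the cell type could not be checked against marker expression.

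p53 is kept scarce in unstressed cells by Mdm2, a ubiquitin ligase that marks it for destruction and whose own gene p53 activates. When DNA damage or other stress stabilises p53, it binds DNA as a tetramer and switches on genes that stop the cell cycle, genes that trigger apoptosis, and genes of repair and metabolism. NF-kB, released from its inhibitors when TNF binds its receptor, mostly activates genes of inflammation and survival, and it binds 10-base kappaB sites.

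RelA peaks lay around 7 of the 8 genes. A gene was counted when the centre of a peak lay inside it or within 50 kb of either end, which held for 43.2% of all protein-coding genes. Together 14 peaks lay around the 8 genes, none of them shared between 2 of the genes, and the number ran from 4 at Btg2 and 3 at Cdkn1a to none at Sesn2. Per 100 kb of sequence searched this was 1.56 peaks, against 0.503 over the windows of all protein-coding genes, where a peak near several genes is counted for each. Peaks stood at a gene end, with the centre within 1 kb of it, at Trp53, Btg2, Trp53inp1 and Ccng1, 4 of 8 genes against 6.34% of all protein-coding genes. The 8 genes are short, 4.29 to 21.9 kb. Among the 7850 protein-coding genes of that length, 41.8% had a peak by the 50 kb rule. Those 7850 genes had 0.589 peaks per 100 kb searched, and 516 of them had a peak centre within 1 kb of an end. Since the 8 genes were chosen with earlier results of these data known, these values are set side by side and were not tested.

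**Figure D1:**
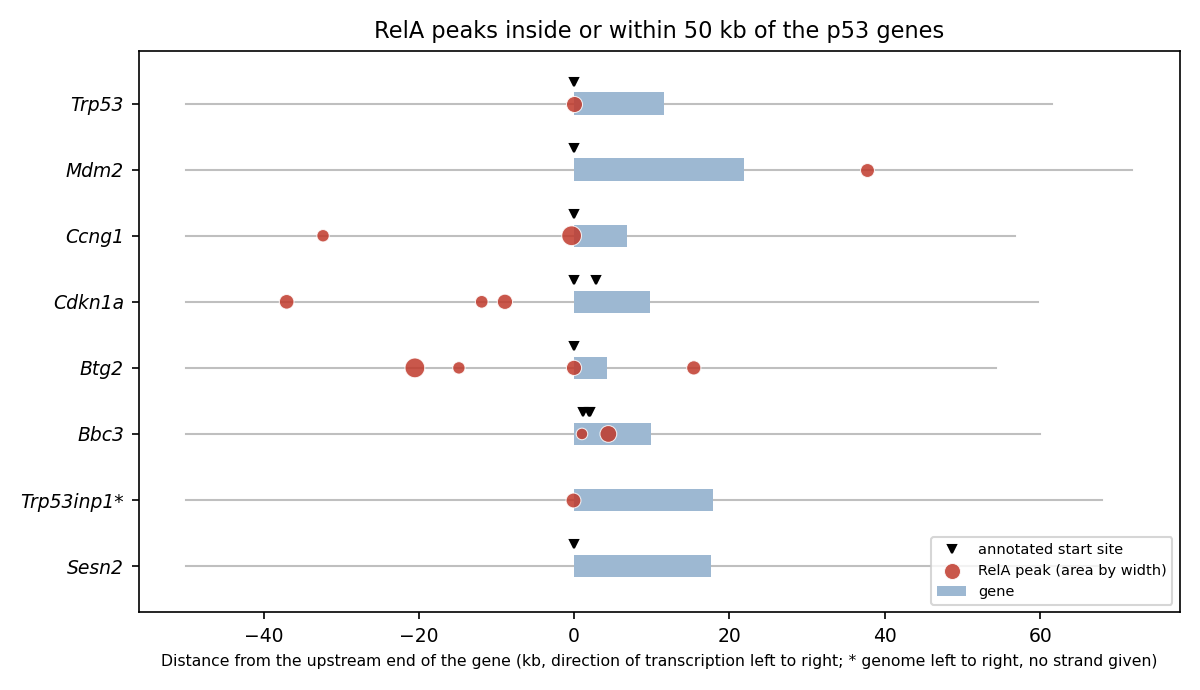
Map of the 8 genes (blue bars), each drawn from its upstream end at 0 (Trp53inp1, with no strand given, from its left end) with the searched 50 kb on both sides (grey lines), with distance in kb on the horizontal axis, RelA peak centres as red circles with area by peak width, and RefSeq start sites as black triangles. Trp53, Ccng1, Btg2 and Trp53inp1 carry a peak at the end of the gene, Bbc3 carries 2 inside, the Cdkn1a peaks all lie upstream, the Mdm2 peak lies downstream, and Sesn2 has none.

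The sequence at a start site was available from RefSeq (GRCm38.p6, the assembly that mm10 names) for 7 of the 8 genes, not for Trp53inp1, as windows from 250 bases before to 50 bases after each of 10 start sites. A peak overlapped a window of 4 genes, Trp53, Btg2, Ccng1 and Bbc3, against 5.59% of the 17274 protein-coding genes with a window. The first 280 bases of these windows, which end 30 bases into the transcript, lay wholly inside the peak in all 4 cases. They are shown first because they are the promoter sequence that the peaks cover. Trp53 (chr11:69580109-69580388, plus strand), Bbc3 at the first of its 3 start sites with a window (chr7:16309333-16309612, plus strand), Btg2 (chr1:134079126-134079405, minus strand) and Ccng1 (chr11:40755257-40755536, minus strand) are given 5′ to 3′. Capitals mark matches to the kappaB consensus or to the p53 decamer, which are described after the sequences.
Trp53: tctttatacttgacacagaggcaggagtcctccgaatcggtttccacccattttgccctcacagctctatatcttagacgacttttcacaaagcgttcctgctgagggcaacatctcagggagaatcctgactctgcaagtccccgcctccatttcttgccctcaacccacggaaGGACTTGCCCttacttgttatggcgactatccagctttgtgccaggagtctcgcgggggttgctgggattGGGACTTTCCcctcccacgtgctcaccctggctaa
Bbc3: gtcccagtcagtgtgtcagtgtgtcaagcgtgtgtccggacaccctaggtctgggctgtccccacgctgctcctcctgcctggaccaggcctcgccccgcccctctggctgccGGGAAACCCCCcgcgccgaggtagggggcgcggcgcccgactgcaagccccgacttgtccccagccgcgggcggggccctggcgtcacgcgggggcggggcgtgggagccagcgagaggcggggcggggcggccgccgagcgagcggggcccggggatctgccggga
Btg2: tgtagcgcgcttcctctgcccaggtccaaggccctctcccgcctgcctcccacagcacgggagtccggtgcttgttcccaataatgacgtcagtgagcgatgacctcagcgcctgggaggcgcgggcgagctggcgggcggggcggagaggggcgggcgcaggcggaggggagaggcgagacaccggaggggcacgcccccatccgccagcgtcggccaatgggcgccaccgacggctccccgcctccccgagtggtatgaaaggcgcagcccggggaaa
Ccng1: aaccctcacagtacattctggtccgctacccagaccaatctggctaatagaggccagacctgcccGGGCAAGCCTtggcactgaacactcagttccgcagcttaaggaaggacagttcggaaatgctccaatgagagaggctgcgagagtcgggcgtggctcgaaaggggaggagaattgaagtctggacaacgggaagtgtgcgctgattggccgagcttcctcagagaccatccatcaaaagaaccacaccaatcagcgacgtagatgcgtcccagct
Cdkn1a at its upstream start site (chr17:29090729-29091008, plus strand) and Mdm2 (chr10:117710729-117711008, minus strand) are shown for contrast, as windows that no peak overlapped.
Cdkn1a: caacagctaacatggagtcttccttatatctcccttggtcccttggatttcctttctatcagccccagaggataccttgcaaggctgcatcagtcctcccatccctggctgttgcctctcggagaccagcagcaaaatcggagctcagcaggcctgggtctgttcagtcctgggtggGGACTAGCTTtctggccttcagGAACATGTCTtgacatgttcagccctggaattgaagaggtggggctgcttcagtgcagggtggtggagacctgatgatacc
Mdm2: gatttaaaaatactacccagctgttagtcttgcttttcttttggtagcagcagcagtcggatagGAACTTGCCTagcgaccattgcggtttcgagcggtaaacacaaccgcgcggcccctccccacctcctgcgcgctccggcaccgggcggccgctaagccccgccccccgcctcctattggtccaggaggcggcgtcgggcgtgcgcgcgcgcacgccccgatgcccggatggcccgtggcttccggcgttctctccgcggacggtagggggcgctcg

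The kappaB consensus searched was GGG, a purine, 2 of any base, 2 pyrimidines and CC, on both strands. It matched in 2 of the 10 windows, both of them overlapped by a peak. In Trp53 the match GGGACTTTCC, the last capitals of its sequence, ran from base -5 to base 5 around the start site, at chr11:69580354-69580363, inside the peak. In Bbc3 the matches began at bases -137 and -136 from the start site, on overlapping positions, and the first read GGGAAACCCC at chr7:16309446-16309455, also inside the peak. Btg2 and Ccng1 had no match in their windows although a peak covered them. Their peaks are wider than the windows, and the rest of the peak sequence was not used here. The consensus matched in 8.51% of all 32619 RefSeq windows, in 29.0% of the 1353 that a peak overlapped and in 7.62% of the others.

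The p53 decamer, the unit that p53 recognises in pairs (searched as 3 purines, C, 2 bases that are A or T, G and 3 pyrimidines, which reads alike on both strands), matched in 4 of the 10 windows, those of 4 genes, against 8.54% of protein-coding genes with a window. It lay at bases -75 to -66 in Trp53 (GGACTTGCCC) and at bases -185 to -176 in Ccng1 (GGGCAAGCCT), both inside a peak. It lay outside any peak at bases -186 to -177 in Mdm2 and at bases -73 to -64 and -51 to -42 at the upstream start site of Cdkn1a. Of all windows, 8.36% held the decamer, and the share was 8.13% among windows with a peak and 8.37% among the others. The Trp53 decamer is at the same bases as a match, on the opposite strand, to a looser kappaB pattern with only GGG and CC fixed, which 51.1% of all windows hold. A match is a string of letters and does not show that a protein was bound there.

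The gene for p53 itself had 1 RelA peak, and it lay on the start of the gene. Trp53 lies at chr11:69580348-69591873, and the peak, chr11:69579918-69580748, was 831 bp wide with its centre 0.015 kb from the gene end and 0.026 kb upstream of the start site. Of all protein-coding genes, 0.191% had a peak nearer to an end. Trp53 stands head to head with Wrap53, which encodes a protein that carries telomerase RNA to Cajal bodies, and the same peak also overlapped a start window of Wrap53, a gene named after its values were seen. With 7 protein-coding genes within 50 kb, it was the most shared of the 14 peaks. The next peak lay 69.2 kb from Trp53, inside the dynein gene Dnah2.

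The genes of the feedback on p53 differed from each other. Mdm2 (chr10:117688875-117710758) had 1 peak, 625 bp wide at chr10:117672753-117673377, which was centred 15.8 kb beyond the downstream end of the gene and 37.7 kb from its start site. That peak lay inside Cpm, the neighbouring carboxypeptidase M gene. The single window of Mdm2, the promoter shown above, was not overlapped. Ccng1 (chr11:40748552-40755309) encodes cyclin G1, which brings a phosphatase to Mdm2, and it had 2 peaks. The first, chr11:40755008-40756265, covered its start site and was 1258 bp wide, a width that 1.91% of all peaks reach. It was centred 0.350 kb upstream of the start site. The second, 497 bp wide, lay 32.4 kb upstream. The start of Ccng1 was inside a broad peak, while Mdm2 had its only peak past the other end.

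Among the cell cycle arrest genes, Btg2 and Cdkn1a had 7 peaks between them, in different layouts. Cdkn1a (chr17:29090979-29100722) encodes p21, the inhibitor of cyclin-dependent kinases through which p53 halts cells before DNA replication. By the same rule, 7.36% of protein-coding genes had 3 or more peaks. The 3 peaks of Cdkn1a all lay upstream, 8.91, 11.9 and 37.0 kb from the gene end, and were 751, 519 and 690 bp wide. Neither of its 2 start windows was overlapped. The nearer peaks, chr17:29081691-29082441 and chr17:29078815-29079333, stood 2.99 kb apart. The third was nearest to Srsf3, a splicing factor gene. At 37.0 kb it was the outermost peak that the 50 kb rule took in, and the next one out was at 61.7 kb, from Trp53inp1.

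Btg2 encodes an antiproliferative protein that recruits the enzymes which shorten messenger RNA tails, and it had the most peaks of the 8 genes. The share of protein-coding genes with 4 or more peaks by the same rule was 3.12%. Btg2 (chr1:134074865-134079155) had a 745 bp peak, chr1:134078804-134079548, centred 0.021 kb upstream of its start site. Another, 495 bp wide, lay 14.8 kb upstream, and a broad one of 1260 bp, chr1:134099034-134100293, lay 20.5 kb upstream, with 5.67 kb between their centres. The fourth, 650 bp wide, lay 11.1 kb beyond the downstream end. The broad peak, the widest of the 14, had its nearest gene end at Chit1, which encodes a chitin-cleaving enzyme of macrophages, and only the other 3 were nearest to Btg2. Btg2 combined a peak at the promoter with distal ones on both sides, whereas Cdkn1a had distal ones alone.

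Both death genes had a peak at or inside the gene. Bbc3 (chr7:16308398-16318334) encodes PUMA, a BH3-only protein that blocks the survival proteins of the BCL2 family, and its 2 peaks both lay inside the gene, 3.40 kb apart. The first, chr7:16309189-16309617, was centred 0.180 kb upstream of the first of the 3 start sites with a window. That start site lies inside the gene, whose upstream end had no window. The peak was 429 bp wide, the narrowest of the 14. Of all peaks, 98.4% are at least as wide. The second, chr7:16312348-16313254, was 907 bp wide and lay 2.37 kb downstream of the nearest start site. No other peak lay within 100 kb of Bbc3. Trp53inp1 (chr4:11156441-11174379) encodes a stress-induced nuclear protein that promotes p53-dependent cell death, and it had a 713 bp peak, chr4:11155974-11156686, 0.111 kb from its left end. The strand of Trp53inp1 was not given in the tables used, so whether that end is the start was not determined.

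Sesn2 was the only one of the 8 without a peak by the 50 kb rule, and it had none within 100 kb. It encodes sestrin 2, a stress-induced protein that restrains the growth kinase complex mTORC1. Sesn2 lies at chr4:132492804-132510456, and its nearest peak centre was 136 kb away, inside Eya3, a gene named after its values were seen. A nearer peak was found for 65.9% of all protein-coding genes.

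Widths of the 14 peaks ranged from 429 to 1260 bp with a median of 701.5 bp, against a median of 687 bp and quartiles of 587 and 816 bp over the 9823 peaks on chromosomes 1 to 19 and X. Of the 14, 4 were under the lower quartile and 4 over the upper one. The 4 peaks within 1 kb of a gene end, at Trp53, Btg2, Trp53inp1 and Ccng1, were 713 bp or wider, a width that 44.4% of all peaks reach. The narrowest peak, at a Bbc3 start site, narrowly missed this group, with its centre 1005 bp from the gene end. The widest lay 20.5 kb upstream of Btg2. Another peak centre lay within 10 kb of 6 of the 14 peaks, in pairs at Cdkn1a, Btg2 and Bbc3, against 15.7% of all peaks.

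**Figure D2:**
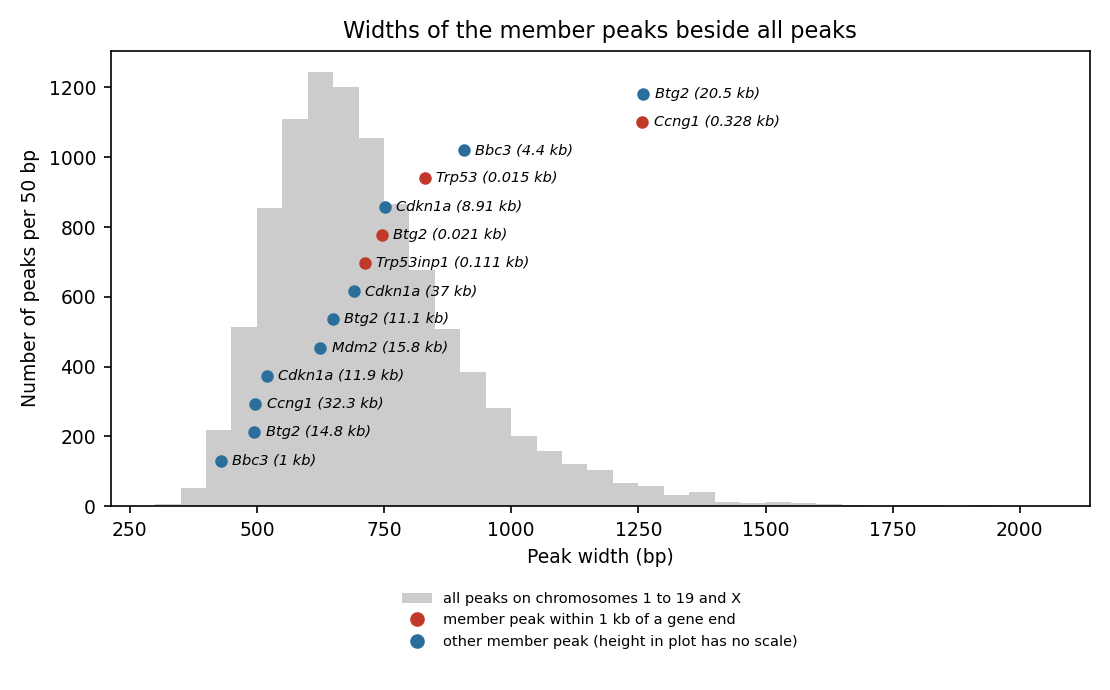
Histogram of peak width in bp for all peaks (grey, number per 50 bp), with the 14 peaks around the p53 genes as points ordered by width, each labelled with its gene and its distance to the gene end. The points span 429 to 1260 bp, and the peaks at 20.5 kb from Btg2 and at the start of Ccng1 stand to the right of the rest.

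All 14 peaks lay within 50 kb of at least 2 protein-coding genes, the examined one included, against 37.7% of all peaks, and the median was 3 genes per peak against 1. Peaks here were taken because a protein-coding gene lay nearby, which the list as a whole does not require. Given to 1 gene only, the one that holds the centre or has the nearest end, 11 of the 14 went to one of the 8 genes and 3 to a neighbour: Srsf3 beside Cdkn1a, Chit1 beside Btg2, and Cpm beside Mdm2. Mdm2 then had no peak, and 6 of the 8 genes kept one, against 21.8% of all protein-coding genes.

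The wider pathway was described with a list of 53 genes that were matched by symbol, the 8 included, of 54 written from general knowledge. Of these, 32 (60.4%) had a peak by the 50 kb rule, against 43.2% of all protein-coding genes. Without the 8, the count was 25 of 45 (55.6%). Searched sequence differed, since the 45 other genes have a median length of 24.4 kb against 17.4 kb for all protein-coding genes. The median distance from a gene end to the nearest peak centre was 27.7 kb over the list, 39.6 kb without the 8, and 70.8 kb over all protein-coding genes.

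Arrest and death genes were set side by side within that list. Of 9 arrest genes, 4 (44.4%) had a peak, Btg2, Cdkn1a, Gadd45a and Gtse1. Roles were those written in the list. Gtse1, which also regulates p53, was counted under arrest only, and no other role was tried for it. Of 14 death genes, 8 (57.1%) had one. The share over all protein-coding genes was 43.2%, which the arrest genes were close to. Within 10 kb the counts were 3 of 9 and 7 of 14, against 23.1% of all protein-coding genes, and within 1 kb they were 1 of 9 and 5 of 14, against 17.0%. The arrest genes without a peak were Sfn, Plk2, Plk3, Rprm and Ccng2, and without Btg2 and Cdkn1a the arrest count was 2 of 7, beside 6 of 12 for death without Bbc3 and Trp53inp1. These counts differ by a few genes, arrest genes are shorter (median 5.31 kb against 16.1 kb), and the difference was not tested. Peaks per 100 kb searched were 1.05 for arrest and 0.930 for death, against 0.503 over all protein-coding genes, with 7 of the 10 arrest peaks at Btg2 and Cdkn1a. Without the examined genes of each role the order turned, to 0.404 for arrest and 0.871 for death.

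Of the 12 death genes outside the 8, 5 had a peak within 10 kb, against 23.1% of all protein-coding genes. The end of Tnfrsf10b, which encodes the receptor for the death ligand TRAIL, was 0.021 kb from a peak centre, and Fas, the gene for the receptor of FAS ligand, had 4 peaks, the nearest at 0.226 kb. Eda2r (0.712 kb), a gene for a receptor of the TNF receptor family, and Bax (1.88 kb), which encodes a protein that opens the mitochondrial outer membrane, were named after their values were seen. Pmaip1, which encodes the BH3-only protein NOXA, had 3 peaks with the nearest at 10.4 kb, and Pidd1, a gene of the caspase-2 platform, had 3 with the nearest at 7.58 kb. No peak by the 50 kb rule was found for 6 death genes, Perp, Aen, Apaf1, Zmat3, Siva1 and Ei24. Among arrest genes, Gadd45a, which encodes a stress sensor of the cell cycle, had its nearest peak at 3.75 kb and 2 within 50 kb.

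In the other roles, 9 of 13 regulators of p53 (69.2%) had a peak, against 43.2% of all protein-coding genes. The regulators are long genes, with a median of 68.3 kb against 17.4 kb, so more sequence was searched for them. Atr, the kinase of the replication stress checkpoint, had one 0.216 kb from its end, Trp63, a gene of the p53 family that is 208 kb long, had 5, and Mdm4, which encodes a partner of Mdm2 that holds p53 inactive, had 4. Of the other damage kinase genes, Chek2 had 1 peak, 31.5 kb away, while Atm and Chek1 had none within 100 kb. Of 6 feedback genes, which have a median length of 28.9 kb, 5 (83.3%) had a peak. After Ccng1, the gene end nearest to a peak centre was that of Rchy1, which encodes another ubiquitin ligase for p53. Its peak lay inside the gene, 1.93 kb from the end. Of 11 genes of stress metabolism and repair, 6 (54.5%) had one. The gene ends nearest to a peak centre were those of the glutathione peroxidase gene Gpx1 (0.312 kb), the glutaminase gene Gls2 (6.11 kb) and the mTORC1 inhibitor gene Ddit4 (6.25 kb, 3 peaks). By this measure a gene with a peak deep inside it ranks as further away. Sesn1, the gene for sestrin 1, had 1 peak, inside the gene and 20.9 kb from its nearer end, while its paralogue Sesn2 had none.

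**Figure D3:**
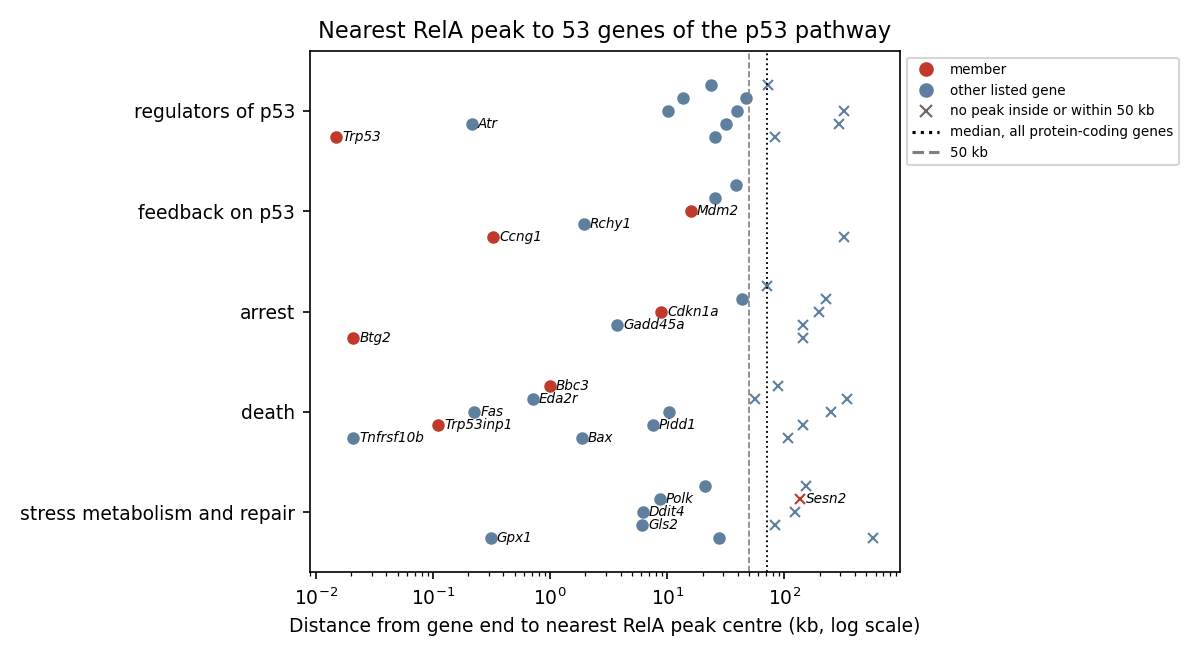
Distance in kb (log scale) from either gene end to the nearest RelA peak centre for the 53 listed genes in 5 roles, with the 8 p53 genes in red, other listed genes in blue and crosses for genes with no peak inside or within 50 kb. The dotted line is the median of all protein-coding genes, 70.8 kb, and the dashed line is 50 kb. Trp53 and Btg2 lie furthest left among the 8, and Sesn2 lies to the right of both lines.

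Each window holds the narrower ones, so the share of genes with a peak could only rise or stay level as the window widened. For the 8 genes it was 62.5% at 1 and 5 kb, 75.0% at 10 kb and 87.5% at 50 and 100 kb. All protein-coding genes went from 17.0% at 1 kb and 19.8% at 5 kb to 58.7% at 100 kb. The arrest genes were at 11.1% at 1 kb and 55.6% at 100 kb, below all protein-coding genes at both. They were above them at 5, 10 and 50 kb. Arrest genes are shorter, with a median of 5.31 kb against 17.4 kb, and a peak inside a gene counts at every window. Among the 7850 protein-coding genes as long as the 8, the share was 9.69% at 1 kb and 59.9% at 100 kb.

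**Figure D4:**
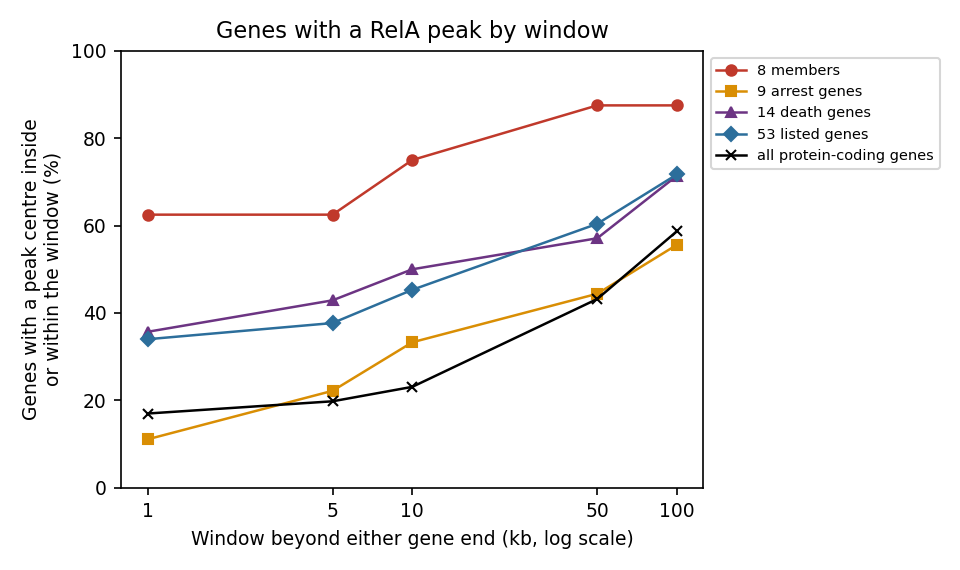
Share of genes in percent with a RelA peak centre inside the gene or within the window, against the window in kb (log scale), for the 8 p53 genes, 9 arrest genes, 14 death genes, all 53 listed genes and all protein-coding genes. The 8 genes are the highest at each window, from 62.5 to 87.5%, and the arrest genes stay close to all protein-coding genes.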

How the data were processed

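Cells were fixed with formaldehyde after disuccinimidyl glutarate, per the labels' protocols, which can also hold proteins that touch DNA through others, and sheared chromatin was pulled down with a p65 antibody. The submitters' processing notes name MACS2, deepTools, Picard 1.13, SAMtools, Bowtie2 2.3 and cutadapt 1.9.1, with the build mm10. The sources used here do not say what threshold was set, how input was used, or whether libraries were pooled for calling. The deposited values are peak starts and ends in base pairs, in 3 columns, for no single sample, so depth is unknown and no interval could be given.

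Peak starts were counted from 1. Genes came from the RefSeq gene table of GRCm38.p6. On chromosomes 1 to 19 and X, 110 protein-coding genes with positions on scaffolds were left out, as were 6 peaks on contigs. Promoter windows of 300 bases came from RefSeq. Ptprv, written in the list, was not among the protein-coding genes. The 8 genes, the list and its roles were chosen with earlier results of these data known. Named were the 8 genes and, in each role, the 3 listed genes with an end nearest to a peak centre, if within 10 kb. Also named were listed genes with 3 or more peaks, and the gene that holds each peak or has the nearest end. Listed genes named for having no peak, and others said to be, were named after their values were seen, as were Gtse1, Chek2, Sesn1 and Dnah2. Counts were made in Python 3.11.15 with pandas 2.3.3 and numpy 2.4.6 and tested on 200 made peaks. No test was run between groups. Alternatives were windows of 1, 5, 10 and 100 kb, any overlap, wider peaks only, merged peaks, 1 gene per peak, other roles for Ccng1 and Trp53inp1, and other kappaB patterns.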

Additional observations from a re-analysis of the deposited data

How the results depend on the processing

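The count of 7 of 8 genes with a peak stayed within 1.5 times under all 8 alternatives, from 5 at 1 and 5 kb to 7. It could not rise above 8. The share of all protein-coding genes meanwhile ran from 17.0% at 1 kb to 58.7% at 100 kb. With only peaks at least as wide as the median, 6 of the 8 genes had one, against 28.5%. Of 55 alternatives to all counts, 41 stayed within 1.5 times and 14 did not. Some of the 41 could hardly move. Merging peaks changed none of the counts it was applied to. Counting Ccng1 under arrest took that count from 4 to 5, and leaving out Trp53inp1 took death from 8 to 7. Arrest, death and both together were also tallied as separate results, so 41 of 55 is not a measure of stability. The 14 peaks fell to 6 at 1 kb, 6 at 5 kb, 7 at 10 kb and 8 with only peaks at least as wide as the median. Arrest and death genes with a peak, 12 of 23 together (4 of 9 and 8 of 14), fell to 6 (1 and 5) at 1 kb. With the wider peaks they fell to 7 (2 and 5), and arrest genes fell to 2 at 5 kb. The share of all protein-coding genes fell too, from 43.2% to 17.0% at 1 kb, 19.8% at 5 kb and 28.5% with the wider peaks. The wider list fell from 32 to 18 at 1 kb and 20 at 5 kb. A narrower window, or fewer peaks, can only lower such a count. Windows of the 10 start sites with a kappaB match went from 2 to 7 with only GGG and CC fixed. No paired analysis was possible because the list holds no value per library, and no library could be left out. Leaving out the 8 genes from the list, and the genes of like length, were added after seeing the data.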

Other observations

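Start windows of the wider list were also compared with the peaks. A peak overlapped a window of 8 of the 43 listed genes that have one, against 5.59% of all protein-coding genes with a window. Beside Trp53, Btg2, Ccng1 and Bbc3 these were Atr, Fas, Sesn1 and Gpx1. A kappaB match stood in an overlapped window of 4 of the 8, Trp53, Bbc3, Atr and Gpx1, and in a window without a peak of 1 listed gene, Gtse1, which encodes a regulator of p53 in G2 phase. Of all overlapped windows, 29.0% held the match. The p53 decamer stood in a window of 15 of the 43 genes, against 8.54% of all protein-coding genes with a window. Of the 15, 3 had an overlapped window, Trp53, Ccng1 and Sesn1, a share close to the 8 of 43 over the list. These genes were named after their values were seen.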
